A study of Mus musculus with 6 samples.

Results

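The Fgd family of Cdc42 exchange factors was examined in NOR-10, a fibroblast line from mouse skeletal muscle, with and without D-galactose (D-gal). The members were the rows of the deposited table named Fgd1, Fgd2, Fgd3, Fgd4, Fgd5, Fgd6 and Cdc42, which are 7 of its 34745 genes. Fgd3 was chosen by its rise under D-gal, which is among the most certain in this same contrast, and its values are therefore given as a description without a test. The other members were taken by name as relatives of Fgd3 or as their common substrate. The control group was incubated with PBS and the D-gal group with 20 mg/mL D-gal for 3 days, with n = 3 libraries in each group and no genotype label in either. All libraries came from this single line, and nothing in the sample labels says whether the replicates were separate cultures. The p-values therefore set the difference between the groups only against the spread between these libraries.

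Cdc42 is a small GTPase that switches between a GTP-bound active form and a GDP-bound inactive form, and it directs actin assembly, filopodia and cell polarity. Exchange factors load it with GTP, GTPase-activating proteins turn it off, and GDIs hold it in the cytosol. The proteins of the Fgd family carry a Dbl homology domain, which catalyses the exchange, pleckstrin homology domains and a FYVE zinc finger, which binds a phosphoinositide of membranes. FGD1 is mutated in faciogenital dysplasia (Aarskog-Scott syndrome), a disorder of skeletal growth, and FGD4 (frabin) in a demyelinating form of Charcot-Marie-Tooth disease.

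Total counts per library lay between 16876087 and 20830349 with PBS and between 13759108 and 15157064 with D-gal. Of 8 fibroblast markers, 7 passed the filter on low counts, and their summed level was 6668 to 6847 CPM (counts scaled to a common library total) with PBS and 4271 to 4398 CPM with D-gal. In such bulk samples, fewer cells of a type and less RNA of these marker genes per cell cannot be told apart. Col1a1, a chain of type I collagen, was the highest of them, at 2264 to 2361 CPM with PBS and 1399 to 1479 CPM with D-gal. The paper reported higher COL-1 on Western blots under D-gal, which measure protein rather than RNA. The remaining marker, Lum, had at most 1 count in a library. Of the 7 muscle cell markers, Pax7 and Myod1 had a count of 0 in every library and Des was the highest, at 2.88 to 3.22 CPM with PBS and 1.75 to 1.89 CPM with D-gal. Control replicate 1 stood apart in markers of macrophages and antigen-presenting cells, which summed to 45.8 CPM there, to 8.41 and 10.2 CPM in the other control libraries, and to 6.73 to 7.48 CPM with D-gal. The highest of these markers, Lyz2, had 627 counts in control replicate 1 and 46 to 114 in the other libraries. Results on the members are therefore also given without that library.

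Fgd3 (ENSMUSG00000037946) spans 49261554 to 49320311 on the minus strand of chromosome 13 (GRCm38) and has 3 annotated transcripts, all coding, with 23 distinct exons. No other annotated gene overlaps its exons, and 0% of its words of 31 bases occur in transcripts of other genes. Fgd1 (ENSMUSG00000025265) spans 151046150 to 151089521 on the plus strand of chromosome X and has 4 transcripts, 2 of them coding. Their start regions as RefSeq annotates them (GRCm38.p6, 250 bases before to 50 after the start) are shown because these paralogs had the highest levels of the family and changed places in order between the groups. Capitals mark matches to GGGCGG (the GC box of Sp1) or CCAAT on either strand, the only searched motifs with a match in these regions. The TATA box (TATAAA), the core of the tonicity element (TGGAAA) and the AP-1 element (TGANTCA) were also searched on both strands. No matches overlapped.
Fgd3, chr13:49309159-49309458, minus strand: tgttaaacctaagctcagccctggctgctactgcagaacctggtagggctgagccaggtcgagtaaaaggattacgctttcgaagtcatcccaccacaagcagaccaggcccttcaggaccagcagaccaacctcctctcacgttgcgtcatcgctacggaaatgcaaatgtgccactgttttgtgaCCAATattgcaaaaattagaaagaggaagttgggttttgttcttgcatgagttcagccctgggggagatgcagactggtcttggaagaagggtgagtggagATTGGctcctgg
Fgd1, chrX:151046920-151047219, plus strand: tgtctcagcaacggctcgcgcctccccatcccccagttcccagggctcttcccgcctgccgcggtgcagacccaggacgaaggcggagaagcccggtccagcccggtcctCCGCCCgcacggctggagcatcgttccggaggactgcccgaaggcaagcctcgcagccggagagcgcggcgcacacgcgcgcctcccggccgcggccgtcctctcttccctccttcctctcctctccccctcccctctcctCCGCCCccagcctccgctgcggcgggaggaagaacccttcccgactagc
The Fgd3 region held CCAAT 63 bases before the start and again, on the other strand, 38 bases after it. Start regions of Fgd2 and Fgd6 held CCAAT as well. Fgd4 has RefSeq start regions 1, 2 and 3, of which 1 and 2 held CCAAT and 3 did not. The Fgd1 region held GGGCGG on the other strand 140 bases before the start and 1 base after it. Among all 32851 RefSeq start regions of this length, 37.4% held CCAAT, 35.7% GGGCGG, 21.4% TGGAAA, 13.6% TATAAA and 7.81% TGANTCA. The regions also differed in base composition, with 51.0% G and C and 7 CpG dinucleotides for Fgd3, against 72.7% and 33 for Fgd1. The median over all such regions was 52.7% and 7. The region of Fgd2, which was hardly detected, also lacked GGGCGG and had 55.0% and 4. Region 3 of Fgd4 lacked GGGCGG too, with 50.3% and 6, while its region 2 held GGGCGG, with 51.7% and 5. The RefSeq start of Fgd3 lies 11103 bases downstream of the first base of the gene in GENCODE, and that of Fgd1 1020 bases downstream. Which start the cells used was not measured.

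Fgd3 was higher under D-gal in every library. Its counts were 1004, 1153 and 906 with PBS and 2721, 3137 and 2790 with D-gal. After TMM normalization, which corrects for library size and composition, these were 874.9, 940.8 and 914.9 against 3054, 3426 and 3362 normalized counts. The groups did not overlap, and the lowest D-gal library lay far above the highest control library. The means were 910.2 ± 33.2 and 3280 ± 199 (SD, n = 3 each), a log2 fold change of 1.85 (standard error 0.05) or 3.60-fold. The thresholds of the study were an adjusted p-value under 0.05 together with a doubling or more (log2 fold change of 1). In all, 318 genes rose past both, which is 2.37% of all genes tested. Among them Fgd3 was number 3 by p-value, the ranking that chose it, and number 71 by size. The log2 fold change was 1.82 without control replicate 1.

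**Figure D1:**
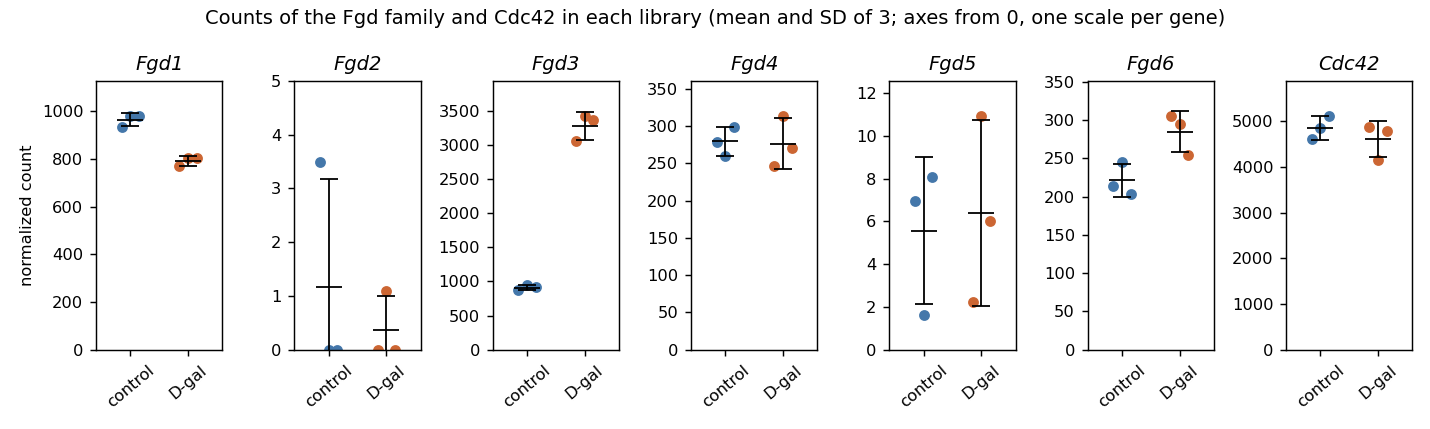
Normalized counts of each member in the 3 control (blue) and 3 D-gal (orange) libraries, with the mean and SD of each group as black bars. Each panel starts at 0 and has its own scale. The D-gal libraries of Fgd3 sit between 3054 and 3426 and its control libraries between 874.9 and 940.8, whereas Fgd2, Fgd4, Fgd5 and Cdc42 overlap between the groups.

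The other members differed little between the groups or were hardly detected. Of the 6 members beside Fgd3, 4 passed the filter on low counts, and 0 of these passed both thresholds in edgeR's quasi-likelihood test or in DESeq2. Among all 13407 genes tested, 4.21% passed both (2.37% higher and 1.83% lower). At the adjusted p-value alone 2 of the 4 passed, Fgd1 downwards and Fgd6 upwards, while 34.8% of all genes tested passed (16.9% higher and 17.8% lower). The same 2 had an unadjusted p under 0.05, as did 44.6% of all genes tested. These same members were the ones whose groups did not overlap, which held for 49.1% of all genes tested (24.2% higher and 24.9% lower).

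Fgd1, the founding member of the family, fell. It had 934.2, 980.8 and 980.6 normalized counts with PBS and 769.9, 804.8 and 804.9 with D-gal. The groups did not overlap, with all D-gal values on the lower side. The fitted difference was -17.8%, or a log2 fold change of -0.28 with a standard error of 0.05. It had an adjusted p of 0.00324 in edgeR's quasi-likelihood test after Benjamini-Hochberg adjustment. The log2 fold change was -0.31 when control replicate 1 was left out. The exons of Fgd1 overlap those of Tsr2, a factor of ribosome assembly on the opposite strand, over 1151 bases, and 21.8% of the words of Fgd1 occur in other genes when both strands are counted (0.0813% in the same sense). Tsr2 itself fell from 576 ± 74.8 to 400 ± 60.3 normalized counts (SD, n = 3), with a log2 fold change of -0.52 and an adjusted p of 0.0164 in the edgeR test. Whether the counting used the strand is not given in the sources used here, so the part of these shared bases in the fall of Fgd1 cannot be told apart from the rest.

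Fgd6, an exchange factor described in osteoclasts and endothelial cells, was higher under D-gal. Fgd6 (ENSMUSG00000020021) lies on the plus strand of chromosome 10 (94036001 to 94145339) and shares 0% of its words with other genes. Its normalized counts were 214.4, 245.6 and 204.0 with PBS and 305.3, 294.8 and 254.2 with D-gal. The lowest D-gal library lay just above the highest control library. The fitted log2 difference was 0.36 with a standard error of 0.11 (adjusted p of 0.0351 in the edgeR test), or 1.29-fold. The call was lost with DESeq2 (adjusted p = 0.0611) and when any of 4 libraries was left out, with an adjusted p of 0.0966 without control replicate 1, 0.101 without control replicate 3, 0.102 without D-gal replicate 1 and 0.0945 without D-gal replicate 2.

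Fgd4, or frabin, which binds actin filaments, showed no difference past the threshold. Its normalized counts were 278.9, 260.3 and 298.9 with PBS and 245.8, 313.4 and 269.9 with D-gal. The D-gal values spread on both sides of the control values. The log2 fold change was -0.01 (-0.01 without control replicate 1), with a 95% interval from -0.27 to 0.24 and an adjusted p of 0.939 in the edgeR test. Fgd4 (ENSMUSG00000022788) lies on the minus strand of chromosome 16 (16416917 to 16600549). Of its words, 10.3% occur in other genes.

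Fgd5, a factor known from endothelial cells, and Fgd2, known from antigen-presenting cells, were too low to be tested. Fgd5 (ENSMUSG00000034037, chromosome 6, 91978878 to 92076004) had 8, 2 and 8 counts with PBS and 2, 10 and 5 with D-gal, so the groups overlapped. Endothelial markers were low as well, and their summed level overlapped between the groups, at 5.18 to 5.75 CPM with PBS and 4.98 to 6.40 CPM with D-gal. Kdr, the highest of 8, reached 1.78 to 2.31 CPM with PBS and 1.16 to 1.55 CPM with D-gal, and 4 of the 8 stayed under 1 CPM in every library. Fgd2 (ENSMUSG00000024013, chromosome 17, 29360914 to 29379660) had 4 counts in control replicate 1, 1 count in D-gal replicate 2 and 0 in the other libraries, where a count of 0 allows up to 0.144 CPM in control replicate 2 and 0.218 CPM in D-gal replicate 3. These limits cover counting error only. The library with the most Fgd2 counts was the library with the most macrophage marker counts, and the part of other cells in these counts was not tested.

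Cdc42, the GTPase on which these factors act, showed no difference past the threshold either. Cdc42 (ENSMUSG00000006699) lies on the minus strand of chromosome 4 (137319696 to 137357720). Its normalized counts were 4605, 4849 and 5115 with PBS and 4883, 4156 and 4787 with D-gal, and D-gal replicate 2 was the lowest of all. The log2 fold change was -0.08 (-0.11 without control replicate 1), with a 95% interval from -0.23 to 0.08 and an adjusted p of 0.419 in the edgeR test. Cdc42 shares 7.12% of its words with other genes, first among them the predicted genes Gm7407 and Gm6929, so reads may have been split between copies. For Fgd1 and Fgd6 a two-sided exact permutation test of the log2 values gave p = 0.1, the smallest that 3 against 3 allows, and for Fgd4 and Cdc42 the exact test gave p = 0.9 and p = 0.5.

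Levels of different genes were compared per length, as the deposited FPKM. In the control group the order was Cdc42 (94.6 ± 4.74), Fgd1 (10.6 ± 0.273), Fgd3 (7.65 ± 0.270), Fgd6 (1.54 ± 0.151), Fgd4 (0.760 ± 0.0515), Fgd5 (0.0364 ± 0.0225) and Fgd2 (0.00963 ± 0.0167), each as mean ± SD FPKM with n = 3. The ranges of neighbours in this order did not overlap, except those of Fgd5 and Fgd2. In the D-gal group Fgd3 (28.2 ± 1.81) stood above Fgd1 (8.88 ± 0.256), and the ranges of these did not overlap in either group. The remaining order was the same, with Cdc42 at 91.9 ± 7.64, Fgd6 at 2.02 ± 0.188, Fgd4 at 0.770 ± 0.0980, Fgd5 at 0.0429 ± 0.0293 and Fgd2 at 0.00309 ± 0.00535 FPKM (mean ± SD, n = 3).

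**Figure D2:**
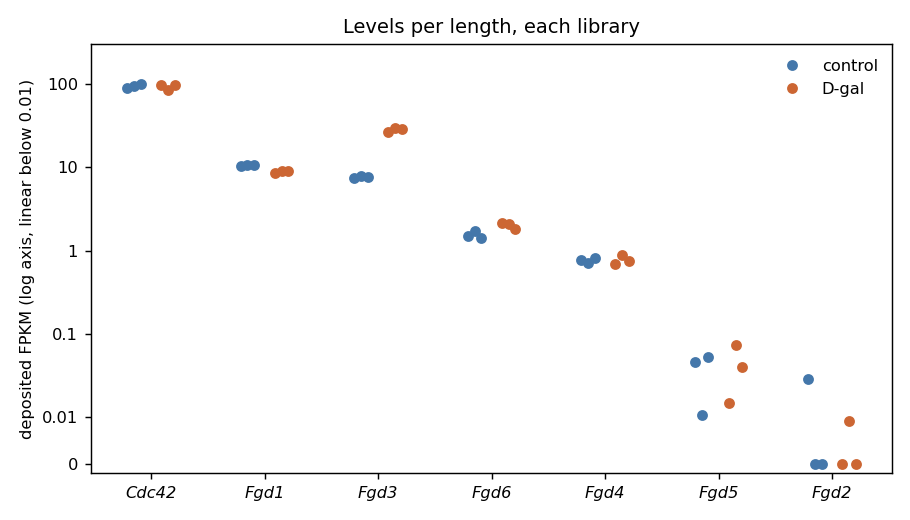
Deposited FPKM of each member in each control (blue) and D-gal (orange) library, on a log axis that is linear below 0.01 so that values of 0 can be shown. Fgd3 lies below Fgd1 in the control libraries (mean 7.65 against 10.6) and above it in the D-gal libraries (28.2 against 8.88).

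The ratio of the Fgd3 level to the Fgd1 level was 0.720, 0.737 and 0.717 with PBS and 3.05, 3.27 and 3.21 with D-gal. The paralogs thus changed places in every D-gal library. With PBS the mean of Fgd1 was 1.38 times that of Fgd3, and the exons of Fgd1 overlap Tsr2 over 1151 bases. The part of these shared bases in the Fgd1 level cannot be told apart from the rest. Fgd3 made up 37.2% ± 0.297 of the summed FPKM of the 6 exchange factors with PBS and 70.6% ± 0.935 with D-gal (SD, n = 3). The summed level was 19.9, 21.1 and 20.6 FPKM with PBS and 37.6, 41.7 and 40.6 FPKM with D-gal. Without Fgd3 the sum was 12.9 ± 0.300 with PBS and 11.7 ± 0.337 with D-gal (SD, n = 3), so the higher sum came from Fgd3. The Cdc42 level was 4.60 ± 0.183 times the summed Fgd level with PBS and 2.31 ± 0.294 times with D-gal. As these ratios contain Fgd3, they follow from its choice and are given without a test.

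**Figure D3:**
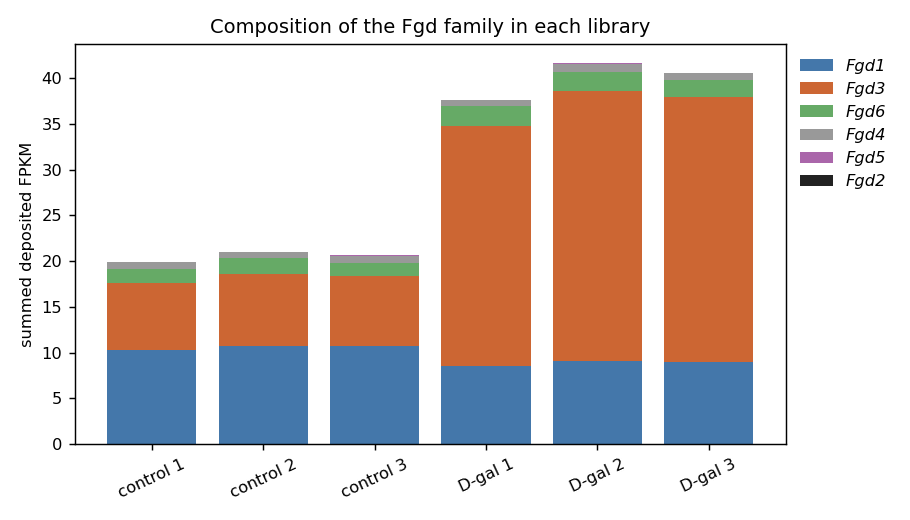
Deposited FPKM of the 6 exchange factors stacked for each library, with axes from 0. The stacks reach 19.9 to 21.1 in control and 37.6 to 41.7 in D-gal libraries, and the Fgd3 segment (orange) accounts for the taller stacks, while Fgd5 and Fgd2 are too low to be seen.

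Among 28 exchange factors with known activity on Cdc42, the Fgd family and 22 others, Fgd3 ranked number 6 by mean FPKM with PBS and number 1 with D-gal. Fgd1 ranked 2 and 4. Because Fgd3 was chosen by its rise, its higher rank with D-gal largely follows from that choice and is given without a test. The highest in the control group was Dnmbp (Tuba), at 13.6 ± 0.137 FPKM (SD, n = 3), which had 10.8 ± 0.460 FPKM with D-gal. With lengths from the distinct bases of all annotated exons, Fgd3 ranked 4 and 1 and Fgd1 2 and 4, and Plekhg2 took the first place in the control group, a gene named after its value was seen. The deposited length of Fgd3, 7001 bases, counts overlapping exons repeatedly and exceeds its 6012 distinct bases, whereas that of Dnmbp, 4882 bases, is shorter than its 8264 distinct bases. Ranks between genes therefore depend on the lengths used.

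The other genes of the pathway were counted in lists written from general knowledge. Of the 20 other Cdc42 exchange factors tested, 3 rose and 3 fell at the adjusted p-value threshold (30.0% against 34.8% of all genes tested). Of the 20, 0 also passed the fold change threshold, against 4.21% of all genes tested. An unadjusted p under 0.05 was found for 12 of them (44.6% of all genes tested). The median log2 fold change of this list was -0.05, while that of all genes tested was 0.0036. Arhgef6 (alpha-PIX) rose from 302 ± 21.4 to 508 ± 34.9 normalized counts (SD, n = 3), or by 0.75 on the log2 scale. Dnmbp, which links Cdc42 to dynamin, fell by 0.36 on the log2 scale, and Dock9 (zizimin), of the separate DOCK class, rose by 0.41. Their adjusted p-values in the edgeR test were 3.9e-04, 8.9e-04 and 0.00384.

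Of the 13 GTPase-activating proteins and GDIs tested, 3 rose and 5 fell by the adjusted p-value (61.5% of the list against 34.8% of all genes tested), with a median log2 fold change of -0.01. Of these 13, 9 had an unadjusted p under 0.05, against 44.6% of all genes tested. Arhgap33 alone passed both thresholds (4.21% of all genes tested), with 106, 144 and 105 counts with PBS against 42, 47 and 33 with D-gal. Its log2 fold change of -1.19 had a standard error of 0.16 and an adjusted p of 0.00103 in the edgeR test. With limma on log2(FPKM + 1) it was -0.57, which is not past the fold change threshold. Arhgap10, which acts on Cdc42 and RhoA, fell by 0.72, and Arhgdib, a GDI known from blood cells, fell by 0.78. Their adjusted p-values were 5.3e-05 and 7.7e-04 in the edgeR test, and both overlap a gene on the opposite strand. Arhgap10 also shares 13.1% of its words with other genes.

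Of the 34 Cdc42 effectors tested, 5 rose and 12 fell by the adjusted p-value (50% of the list against 34.8% of all genes tested), with a median log2 fold change of -0.05. None of the 34 passed both thresholds in edgeR or DESeq2, whereas 4.21% of all genes tested did in edgeR. An unadjusted p under 0.05 was found for 19 of the 34 (44.6% of all genes tested). The formin Fmnl1, named after its value was seen, was too low to be among them. It was called by DESeq2 (log2 fold change -2.27, adjusted p of 0.0403) and by edgeR without the filter on low counts (-2.24, adjusted p of 0.0347). Its mean was only 10.8 counts per library. The part in this of control replicate 1, the library with the most macrophage marker counts, was not tested. Iqgap3, a scaffold found in dividing cells, fell from 1799 ± 41.8 to 970.2 ± 42.4 normalized counts (SD, n = 3), or by 0.89 on the log2 scale. Cdc42bpg, an MRCK kinase that acts on myosin, rose from 1074 ± 48.0 to 1909 ± 38.8 (SD, n = 3), or by 0.83 on the log2 scale. Baiap2 (IRSp53), which bends membranes in filopodia, fell by 0.68 on the log2 scale. Their adjusted p-values from edgeR were 1.1e-05, 1.4e-05 and 6.1e-05.

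Of the 16 other GTPases of the family of Cdc42 tested, 2 rose and 4 fell by the adjusted p-value (37.5% of the list against 34.8% of all genes tested), with a median log2 fold change of -0.13. Rnd1, which binds GTP without hydrolysing it and opposes RhoA, rose past both thresholds, from 759.9 ± 57.4 to 1565 ± 12.5 normalized counts (SD, n = 3). Its log2 fold change was 1.04, with a standard error of 0.06 and an adjusted p of 1.5e-05 in the edgeR test, and 0.98 without control replicate 3, which is below the fold change threshold. Rnd3, of the same subfamily, rose by 0.43 on the log2 scale, with an adjusted p of 2.2e-04 in edgeR. Rhoq (TC10), among the closest relatives of Cdc42, fell from 2450 ± 39.2 to 1410 ± 28.6 normalized counts (SD, n = 3), with an adjusted p of 6.1e-06 in edgeR, and overlaps a gene on the opposite strand.

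Of the 22 filopodium and Arp2/3 genes, all tested, 1 rose and 5 fell by the adjusted p-value (27.3% of the list against 34.8% of all genes tested), with a median log2 fold change of -0.08. None passed both thresholds in edgeR or DESeq2, whereas 4.21% of all genes tested did in edgeR. An unadjusted p under 0.05 was found for 9 of the 22 (44.6% of all genes tested). Myo10, the motor of filopodial tips, rose by 0.22 on the log2 scale, whereas Actr2, a subunit of the Arp2/3 complex, fell by 0.15 and Cttn (cortactin) by 0.19. Their adjusted p-values from edgeR were 0.00280, 0.00589 and 0.00755. Of the words of Actr2 and Cttn, 5.30% and 7.37% occur in other genes.

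**Figure D4:**
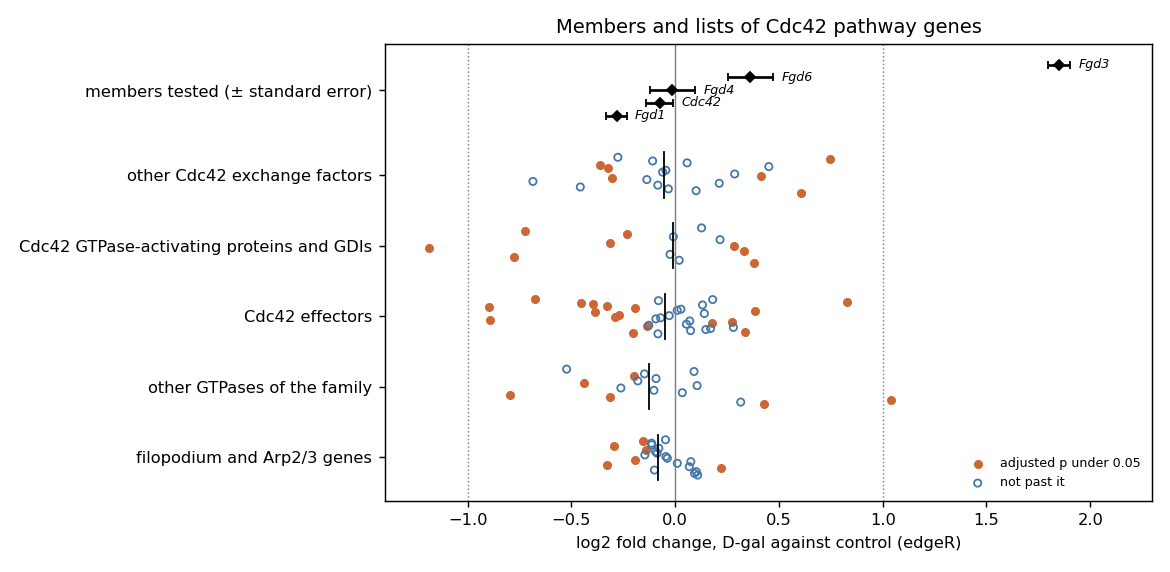
Log2 fold change of D-gal against control from edgeR for the 5 members tested (black diamonds with the standard error) and for each tested gene of the 5 lists. Filled points passed an adjusted p-value under 0.05, open points did not, black lines are list medians and dotted lines mark a log2 fold change of 1 in size. Fgd3 at 1.85 lies beyond every tested gene of the lists, of which the highest is Rnd1 at 1.04 and the lowest Arhgap33 at -1.19. Because Fgd3 was chosen by its rise, its place beyond them largely follows from that choice and is a description.

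The genes whose log2 normalized counts followed those of Fgd3 most closely over the 6 libraries, by Pearson's r among 10407 genes with a mean of at least 100 counts, were Col12a1, Olfml2b, Hspa4l, Ranbp3l and Lrrn3. Their r lay between 0.9992 and 0.9997 and is a description, since it mostly reflects the difference between the groups. Hspa4l, a chaperone of the Hsp110 class, had 2569 ± 7.47 and 8260 ± 415 normalized counts (SD, n = 3), a 1.69 higher log2 value. The log2 fold change was 2.36 for Olfml2b, 2.23 for Ranbp3l and 2.78 for Lrrn3. It was only 0.22 for Col12a1, a collagen associated with fibrils.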

How the data were processed

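RNA-seq was performed on NOR-10 fibroblasts, with 3 control and 3 D-gal libraries. The methods name a preparation set for small RNA while the labels give an RNA-seq kit and total RNA, so that the counts measure gene transcripts rests on the labels. The labels gave each library's group and replicate number, and the methods the dose and duration. The deposited table holds raw read counts per gene, which the authors gave without normalization, and FPKM values, which the authors derived from the counts, gene length and library total. Reads were checked with FastQC and trimmed with Trimmomatic, and the submitters' processing notes name HISAT2 (version 2.0.4). The counting tool, build and annotation are not given in the sources used here. The positions of the members match GENCODE release M21 (GRCm38), apart from an end of Fgd2. One list of cell markers is not reported here. The members and lists were chosen with earlier results of these data known.

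Counts were fitted over the whole table with edgeR (version 4.0.16, R 4.3.3), using filterByExpr, TMM and its quasi-likelihood test, with p-values adjusted by Benjamini and Hochberg's method over 13407 genes. The standard error of a log2 fold change is its size over the root of F, and 95% intervals use the degrees of freedom of that test. Of 160 listed genes, 156 were matched by symbol and 4 through older symbols in RefSeq. Named genes are the members, the 3 of each list with the smallest p, those past both thresholds, the marker of highest count and the 5 genes most like Fgd3, except where stated. Replicates of a group differed beyond sampling noise (chi-square over its degrees of freedom, 6.00 to 9.42). The functions were tested on simulated counts. Alternatives were DESeq2 (version 1.42.0), RLE factors, other filters, the replicate block, each library left out, limma (version 3.58.1) on log2(FPKM + 1), no fold criterion, lengths from distinct exon bases and, added after seeing the data, thinned counts.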

Additional observations from a re-analysis of the deposited data

How the results depend on the processing

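The fall of Fgd1 kept its direction and an adjusted p under 0.05 in all 13 alternatives (log2 fold change -0.31 to -0.23, adjusted p 0.00226 to 0.0151). It passed the fold change threshold in none of them. The log2 fold change of Fgd3 lay between 1.76, with limma on log2(FPKM + 1), and 1.90. Fgd6 stayed higher (0.25 to 0.45), with an adjusted p from 0.0270 to 0.102. Fgd4, which was not called, turned to 0.0074 with limma on log2(FPKM + 1) and ranged from -0.11 to 0.06 with each library left out, including 0.04 without control replicate 3, 0.065 without D-gal replicate 1 and 0.002 without D-gal replicate 3. Cdc42 stayed between -0.12 and -0.01.

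Without the fold change criterion, 4661 genes in place of 564 were called, 2 members beside Fgd3 in place of 0, and 43 genes of the lists in place of 2. Limma on log2(FPKM + 1), which understates changes of low genes, called 120 genes and 1 of the lists, with Arhgap33 lost (-0.57). With each library left out, 491 to 572 genes, 0 members beside Fgd3 and 1 to 2 genes of the lists were called, and without control replicate 3 the list gene lost was Rnd1. DESeq2, and likewise edgeR without the filter on low counts, called 3 genes of the lists, with Fmnl1 gained. With lengths from distinct exon bases, Fgd3 made up 38.7% of the summed Fgd level with PBS and 72.0% with D-gal.

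The sample labels do not say whether the replicate numbers pair the samples. Across genes, the deviations of same-numbered libraries correlated at -0.0134, -0.00726 and 0.0252, which shows no sign of pairing. Deviations from means of only 3 libraries cannot exclude it. With the replicate block 530 genes were called, 0 members beside Fgd3 and 2 genes of the lists. Depth limits Fgd2 and Fgd5, for which no difference was detectable.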
